A study of Homo sapiens with 6 samples.

Results

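R-loops at 10 immediate early genes, *FOS*, *FOSB*, *JUN*, *JUNB*, *JUND*, *EGR1*, *IER2*, *MYC*, *ATF3* and *DUSP1*, were examined in lists of R-loop peaks from HEK293T cells. The genes were listed by name, and a peak was counted for a gene when it overlapped the GENCODE gene record or the 2 kb on either side of it. By this rule the 10 genes, of 20098 protein-coding genes on chromosomes 1 to 22 and X, had 17 of the 10231 peaks of the untreated list and 13 of the 11085 peaks of the treated list. HEK293T is a human embryonic kidney cell line, used here as wild type. The 2 untreated samples received no agent before labeling, and the 2 treated samples were cultured with 10 μM N2-heptynyl-dG, a deoxyguanosine with an alkynyl chain on its minor-groove nitrogen, for 3 h. All 4 were then exposed to 5 mM N3-kethoxal for 10 min, which reacts with unpaired guanines, and the labeled strand was pulled down and sequenced strand by strand (spKAS-seq). The 2 inputs were not analysed here.

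There was 1 peak list per condition, attached to its replicate 1, and the methods state that both replicates entered the definition of R-loops. A list gives positions and a strand for its peaks, and nothing else, and does not state whether the strand is that of the enriched DNA, as was assumed here. The depth behind a peak is therefore unknown, no value below has a spread between replicates, and no difference between the conditions was tested. Peaks at the 10 genes were 500 to 2000 bp wide in steps of 250 bp, so that 250 bp is the smallest change of a border that the lists can show.

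Immediate early genes are transcribed within minutes of a growth factor or stress signal, without the need for new protein synthesis. Kinase cascades act on factors already bound at their promoters, such as the serum response factor with its ternary complex partners and CREB, and release paused RNA polymerase II. The products of these genes include the FOS and JUN proteins, which pair as the transcription factor AP-1, and proteins that end the signal, such as the phosphatase DUSP1. In an R-loop, a new transcript stays paired with the DNA it was copied from, and the partner strand of that DNA, which reads like the RNA, is left single. A peak on the strand of the gene is thus the one that transcription of that gene would give.

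The promoters of 5 of the genes are shown. Each held one of the motifs searched, and a peak on the strand of the gene covered its start site in at least one list. At *FOSB* and *JUNB* this was the untreated list alone. *MYC* and *ATF3* also held a motif and had such a peak in both lists, but their promoters are not printed. Each printed sequence is the 250 bases before the start of the canonical transcript in GRCh37, on the strand of the gene. Capitals mark matches to TATAAA, to the cyclic AMP response element TGACGTCA and to the CArG box, the site of serum response factor, searched on both strands. The positions are chr14:75745281-75745530 (plus strand) for *FOS*, chr19:45971004-45971253 (plus strand) for *FOSB*, chr19:12902050-12902299 (plus strand) for *JUNB*, chr5:137800918-137801167 (plus strand) for *EGR1* and chr5:172198199-172198448 (minus strand) for *DUSP1*.
FOS: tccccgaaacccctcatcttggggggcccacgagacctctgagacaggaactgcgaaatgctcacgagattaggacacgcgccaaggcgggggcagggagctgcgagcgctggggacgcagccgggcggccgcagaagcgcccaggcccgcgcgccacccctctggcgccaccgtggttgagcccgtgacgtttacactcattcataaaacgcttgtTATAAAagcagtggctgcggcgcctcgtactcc
FOSB: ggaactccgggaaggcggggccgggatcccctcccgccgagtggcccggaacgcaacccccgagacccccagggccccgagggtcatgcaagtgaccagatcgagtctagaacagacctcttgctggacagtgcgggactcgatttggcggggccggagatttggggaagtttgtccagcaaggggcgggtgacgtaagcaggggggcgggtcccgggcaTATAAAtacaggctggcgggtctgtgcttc
JUNB: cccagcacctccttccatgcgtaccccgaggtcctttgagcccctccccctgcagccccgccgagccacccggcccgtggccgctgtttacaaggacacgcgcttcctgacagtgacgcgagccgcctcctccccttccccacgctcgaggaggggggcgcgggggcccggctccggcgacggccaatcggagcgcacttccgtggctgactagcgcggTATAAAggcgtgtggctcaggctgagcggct
EGR1: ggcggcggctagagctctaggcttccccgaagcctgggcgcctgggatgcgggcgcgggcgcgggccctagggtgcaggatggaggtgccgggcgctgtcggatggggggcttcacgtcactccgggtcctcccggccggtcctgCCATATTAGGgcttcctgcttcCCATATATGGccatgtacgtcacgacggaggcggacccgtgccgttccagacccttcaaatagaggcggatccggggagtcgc
DUSP1: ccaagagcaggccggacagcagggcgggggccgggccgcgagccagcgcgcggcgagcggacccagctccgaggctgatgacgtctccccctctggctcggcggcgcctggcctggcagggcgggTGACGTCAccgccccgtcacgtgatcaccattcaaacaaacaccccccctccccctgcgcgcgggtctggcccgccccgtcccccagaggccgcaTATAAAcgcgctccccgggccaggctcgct

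TATAAA lay in this window at 6 of the 10 genes, against 9.28% of 19818 protein-coding promoters of the same length. Among the 6 is *MYC*, where the whole window lies in exons of other transcripts. It began at base -33 from the start at *FOS*, at -30 at *FOSB* and *DUSP1* and at -31 at *JUNB*. TGACGTCA lay at *DUSP1*, from base -125 to -118, and at *JUND*, against 2.40% of promoters. The CArG box was found at *EGR1* alone, with 2 copies that began at bases -105 and -83, against 1.13% of promoters. The AP-1 motif TGANTCA was found at 0 of the 10 genes and in 4.70% of all promoters. A match is a description of the letters, and a factor may act from outside this window. *FOSB* and *JUNB*, whose start peaks were in the untreated list alone, and *FOS* and *DUSP1*, whose start peaks were identical in both lists, all held TATAAA at a similar distance. Whether the motif bears on the presence of a start peak was not tested.

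All 10 genes had an R-loop peak in the untreated list and 9 had one in the treated list, the exception being *JUNB*. By the same rule, 41.8% of protein-coding genes had a peak in untreated cells and 43.9% had one after treatment. On the strand of the gene, 9 genes had a peak in the untreated list, all but *JUND*, and 9 had one in the treated list, all but *JUNB*. The share of protein-coding genes with a peak on their own strand was 31.7% and 33.3%. A peak on this strand covered the start of the canonical transcript at 8 genes in untreated cells (*FOS*, *FOSB*, *JUN*, *JUNB*, *EGR1*, *MYC*, *ATF3* and *DUSP1*) and at 6 in treated cells, without *FOSB* and *JUNB*. Among all protein-coding genes, 13.9% had such a peak in untreated cells and 15.6% had one after treatment. The 10 genes were listed with earlier results of these data known, so that these counts describe the genes and were not tested.

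**Figure D1:**
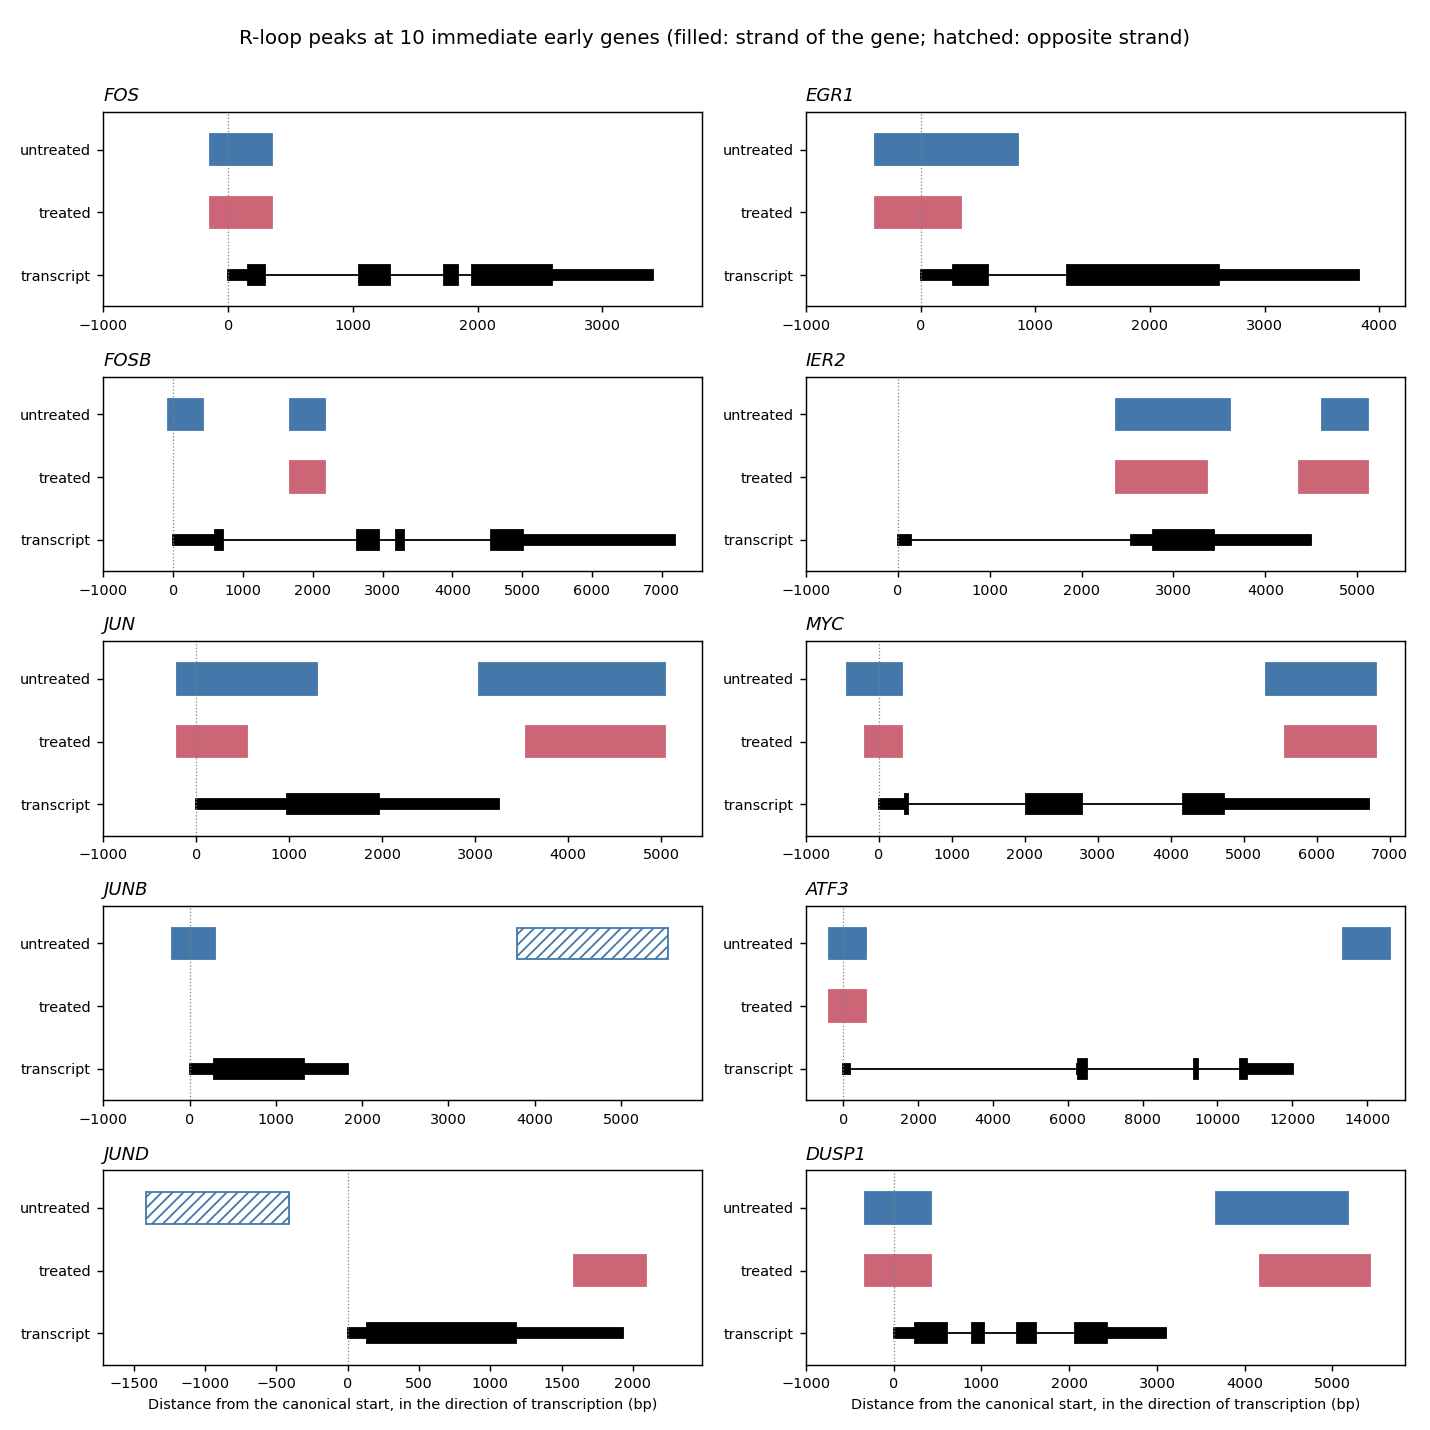
R-loop peaks at the 10 genes, with the distance from the start of the canonical transcript in bp on the x axis, in the direction of transcription, and on the y axis the untreated list, the treated list and the transcript (wide boxes, coding exons; narrow boxes, untranslated exons; line, introns). Filled boxes lie on the strand of the gene and hatched boxes on the opposite strand. Start-site peaks were present at 8 genes in untreated and 6 in treated cells, and several treated peaks ended short of the untreated ones.

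Of the AP-1 subunits, *FOS*, the founding partner of the JUN proteins, lies on the plus strand of chromosome 14 from 75745529 to 75748933 (GRCh37). Both lists held the same single plus-strand peak of 500 bp, from 75745382 to 75745881. It had 149 bp upstream of the start, 155 bp in 5′ untranslated sequence, 141 bp in the coding sequence of exon 1 and 55 bp in the first intron. The peak covered 10.4% of the gene record in either condition.

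*FOSB*, a second FOS subunit on the plus strand of chromosome 19 (45971253 to 45978437), had 2 plus-strand peaks of 500 bp in untreated cells and 1 in treated cells. The peak over the start, from 45971182 to 45971681 with 72 bp upstream and 428 bp in 5′ untranslated sequence, was in the untreated list alone, and the nearest treated peak was 1250 bp away. That nearest peak was the second one, from 45972932 to 45973431 inside the first intron, which had the same borders in both lists. The record of the repair gene *ERCC1* also spans this region, but on the minus strand, opposite to the peaks. The covered share of the *FOSB* record was 12.9% in untreated and 6.96% in treated cells.

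*JUN*, the gene of c-Jun, lies on the minus strand of chromosome 1 (59242517 to 59249720) and had the most covered sequence of the 10 genes, 3500 bp without and 2250 bp with treatment. Each list had 2 minus-strand peaks there. The peak over the start was 1500 bp wide in untreated cells (59248424 to 59249923), with 204 bp upstream, 977 bp in 5′ untranslated and 319 bp in coding sequence. In treated cells it was 750 bp wide (59249174 to 59249923) and ended within the 5′ untranslated sequence, 545 bp after the start. The second peak lay toward the end of the gene and was 2000 bp wide in untreated cells (59244674 to 59246673), of which 211 bp were in 3′ untranslated sequence and 1789 bp beyond the end of the canonical transcript. In treated cells it was 1500 bp wide (59244674 to 59246173) and lay wholly beyond that end. Both treated peaks were contained in the untreated ones, and the covered share of the record was 45.8% against 28.4%.

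The bases with the highest excess of G over C in this second peak are shown as an example of a peak past a transcript end. They lie in sequence that is intronic to a longer transcript of the record, at chr1:59245498-59245597 on the minus strand (GRCh37), and hold 31 G and 12 C, with runs of 3 or more G in capitals. The peak as a whole had no such excess. Its G minus C, divided by all G and C, was -0.030 in untreated and -0.004 in treated cells.
JUN: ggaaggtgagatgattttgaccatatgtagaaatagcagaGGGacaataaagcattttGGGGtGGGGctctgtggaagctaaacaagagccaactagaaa

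*JUNB*, which can temper the activity of c-Jun, lies on the plus strand of chromosome 19 (12902300 to 12904129). The untreated list had a plus-strand peak of 500 bp over its start (12902095 to 12902594), with 205 bp upstream, 286 bp in 5′ untranslated sequence and 9 bp in coding sequence. The treated list had no peak within 2 kb of the gene, and its nearest peak on the plus strand was 17250 bp from this untreated peak. The record of *HOOK2*, on the minus strand, spans the gene. A second untreated peak reached into the downstream 2 kb, but lay on the minus strand (12906095 to 12907844), and overlapped the end of *PRDX2*, a peroxiredoxin gene of that strand whose record extends from 12907634 to 12912614. A treated peak overlapped 500 bp of it outside the 2 kb. The covered share of the *JUNB* record was 16.1% in untreated cells and 0 in treated cells.

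*JUND*, the JUN gene with the steadiest expression in many cell types, lies on the minus strand of chromosome 19 (18390504 to 18392432), and its peaks were on different strands in the lists. The untreated list had a plus-strand peak of 1000 bp upstream of the gene (18392845 to 18393844), which overlaps the microRNA gene *MIR3188* on the plus strand and no base of the *JUND* record. The treated list had a minus-strand peak of 500 bp over the end of the gene (18390345 to 18390844), with 341 bp in 3′ untranslated sequence and 159 bp beyond it. The peaks lay 2000 bp apart, neither overlapped a peak of the other list, and neither covered the start. On its own strand the record was covered by 0 in untreated and by 17.7% in treated cells.

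*ATF3*, a stress-induced partner of the JUN proteins, has a record of 55444 bp on the plus strand of chromosome 1 (212738676 to 212794119), with the canonical start at 212782103. Both lists held the same plus-strand peak of 1000 bp over this start (212781713 to 212782712), with 390 bp upstream, 170 bp in 5′ untranslated sequence and 440 bp in the first intron. A plus-strand peak of 1250 bp past the end of the gene (212795463 to 212796712) was in the untreated list alone, and the nearest treated peak was 12750 bp away. Only 1.80% of this long record was covered in either condition.

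*EGR1*, a zinc-finger transcription factor, lies on the plus strand of chromosome 5 (137801168 to 137804992). Its plus-strand peak over the start was 1250 bp wide in untreated cells (137800772 to 137802021) and reached 853 bp into the gene, through the first coding exon and 264 bp of the intron. In treated cells it began at the same position but was 750 bp wide and stopped 353 bp after the start, with 71 bp in the coding sequence. The covered share of the record was 22.3% in untreated and 9.25% in treated cells.

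*IER2*, a small nuclear protein gene on the plus strand of chromosome 19 (13261225 to 13265725), had no peak over the canonical start in either list. Its first plus-strand peak began 2370 bp after the start, at the end of the intron, and was 1250 bp wide in untreated (13263595 to 13264844) and 1000 bp in treated cells (13263595 to 13264594). It covered all 669 bp of the coding sequence in untreated and 594 bp in treated cells. The second peak lay at the end of the gene and was the only one of the 10 genes to be wider in treated cells, 750 bp (13265595 to 13266344) against 500 bp (13265845 to 13266344). The length covered was 1750 bp in both conditions. The first peak also overlaps 2 long noncoding genes, both of the minus strand. The bases with the highest excess of G over C in the first peak are coding sequence, shown because this peak lies inside the gene. They are at chr19:13264368-13264467 on the plus strand (GRCh37) and hold 39 G and 23 C, with runs of 3 or more G in capitals. The first peak as a whole had no such excess. Its G minus C, divided by all G and C, was -0.009 in untreated and -0.019 in treated cells.
IER2: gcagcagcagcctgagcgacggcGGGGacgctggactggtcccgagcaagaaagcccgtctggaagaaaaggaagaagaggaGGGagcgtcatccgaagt

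*DUSP1*, a phosphatase that inactivates mitogen-activated protein kinases, lies on the minus strand of chromosome 5 (172195099 to 172198198). Its minus-strand peak over the start was the same in both lists, 750 bp from 172197772 to 172198521, with 323 bp upstream, 243 bp in 5′ untranslated and 184 bp in coding sequence. A second minus-strand peak past the end of the gene was 1500 bp wide in untreated (172193022 to 172194521) and 1250 bp in treated cells (172192772 to 172194021). Here the treated peak lay farther downstream, from 4177 to 5426 bp after the start, against 3677 to 5176 bp for the untreated peak. A long noncoding gene of the plus strand spans *DUSP1* and both peaks. The covered share of the record was 13.8% in both conditions, since the second peak lies outside it.

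*MYC*, a transcription factor for growth and metabolism, lies on the plus strand of chromosome 8 (128747680 to 128755197) and had 2 plus-strand peaks in each list. The peak over the start at 128748477 was 750 bp wide in untreated (128748038 to 128748787) and 500 bp in treated cells (128748288 to 128748787). The peak over the end was 1500 bp wide in untreated cells (128753788 to 128755287), with 1410 bp in 3′ untranslated sequence, and 1250 bp in treated cells (128754038 to 128755287). In both pairs the treated peak had the same downstream border and was 250 bp shorter at the upstream border. The covered share of the record was 28.7% in untreated and 22.1% in treated cells. The long noncoding gene *CASC11* of the minus strand overlaps the start peaks.

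The length covered within 2 kb of the genes was smaller in the treated list at 8 of the 10 genes, equal at *FOS* and *IER2*, and larger at 0. Summed over the genes, the covered length was 15615 bp without and 10673 bp with treatment, a change of -31.6%. The change was -1250 bp at *JUN*, -657 bp at *ATF3*, -535 bp at *JUNB* and -500 bp each at *FOSB*, *JUND*, *EGR1*, *MYC* and *DUSP1*. Only bases within the 2 kb were counted. The peaks past the end of *ATF3* and *DUSP1* and the minus-strand peak downstream of *JUNB* crossed that edge and entered in part. With 5 kb on either side the sum changed by -35.5%. Among the 9923 protein-coding genes with a peak in either list, 34.7% had fewer and 41.7% had more covered bp in the treated list, and the sum over all protein-coding genes was 4.77% larger. This comparison was chosen after the values of the members had been seen. With the gene strand alone, 7 genes had fewer and 1, *JUND*, had more covered bp in the treated list, and the sum changed by -26.8%. With the gene record alone, these counts were 6 and 1, the latter again *JUND*. With peaks of at least 750 bp they were 7 and 1, the latter *IER2*.

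**Figure D2:**
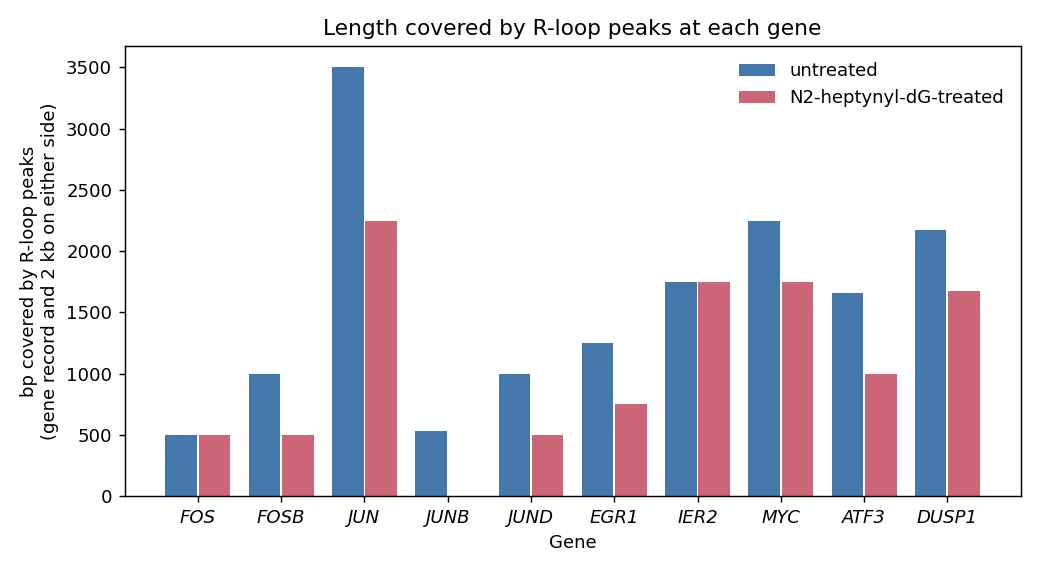
Length covered by R-loop peaks (y axis, bp, from 0) in the gene record and 2 kb on either side of each gene (x axis), in untreated (blue) and N2-heptynyl-dG-treated cells (red), 1 list per condition. The treated bar is lower at 8 genes and equal at FOS and IER2, and JUNB has no treated bar.

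Most of the peaks were nevertheless found in both lists. Among the 17 peaks in untreated cells, 13 met a peak of the treated list by at least 1 bp, and among the 13 in treated cells, 12 met one of the untreated list. Over all peaks of the lists these shares were 74.8% and 69.5%. The untreated peaks without a treated partner were the start peaks of *FOSB* and *JUNB*, the upstream peak of *JUND* and the peak past the end of *ATF3*. The treated peak without an untreated partner was that at the end of *JUND*. A total of 4 peaks had identical borders and strand in both lists, namely the start peaks of *FOS*, *ATF3* and *DUSP1* and the intronic peak of *FOSB*. That is 23.5% of the untreated and 30.8% of the treated member peaks, near the 32.2% and 29.7% over all peaks. Pairs were then formed of an untreated and a treated peak that met on one strand and had no further partner. At the members, 13 such pairs were found, with a narrower treated peak in 8, a wider one in 1 and equal widths in 4. They include the minus-strand peak downstream of *JUNB*, whose treated partner lay outside the 2 kb. Over both lists there were 7443 pairs, with a narrower treated peak in 25.1% and a wider one in 25.0%.

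The peaks on the strand of the gene were sorted by their position. In untreated cells, 8 covered the start, 5 reached past the end of the canonical transcript (*JUN*, *IER2*, *MYC*, *ATF3* and *DUSP1*) and 2 lay between (*FOSB* and *IER2*), and 2 further peaks were on the opposite strand (*JUNB* and *JUND*). In treated cells, 6 covered the start, 5 reached past the end (*JUN*, *JUND*, *IER2*, *MYC* and *DUSP1*), 2 lay between and 0 were on the opposite strand. The summed width of start peaks was 6750 bp without and 4250 bp with treatment, and that of peaks past the end 6750 and 5250 bp. Over all protein-coding genes, 34.0% of the untreated peaks on the strand of a gene covered its start, 34.2% reached past its end and 23.4% lay between, against 53.3%, 33.3% and 13.3% at the 10 genes. In the treated list these shares were 35.8%, 32.4% and 23.4%, against 46.2%, 38.5% and 15.4%. The differences between these shares rest on few peaks and were not tested.

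The base composition of the member peaks differed with their position. The values over all peaks were not split by position, so whether peaks of other genes differ likewise is not shown. In untreated cells, the start peaks had a GC content from 54.2% at *FOSB* to 73.0% at *JUNB*, and the peaks past the end from 36.7% at *JUN* to 54.6% at *IER2*. In treated cells these ranges were 63.2% to 71.5% and 37.6% to 56.6%. The median GC content of the member peaks was 59.6% in untreated and 63.2% in treated cells, against 56.2% and 57.6% over all peaks of the lists. The GC skew, the excess of G over C divided by all G and C, read on the strand of the peak, had a median of -0.030 (range -0.161 to 0.085) in untreated and -0.062 (-0.161 to 0.101) in treated cells. Over all peaks the medians were 0.000 and -0.013. A positive skew was found for 2 of 17 untreated peaks, the start peaks of *FOSB* (0.085) and *JUN* (0.031), against 49.2% of all untreated peaks. In treated cells it was found for 3 of 13, the start peaks of *JUN* (0.101) and *MYC* (0.049) and the end peak of *IER2* (0.042), against 43.9%. The peaks are few and share genes, and these values are descriptions without a test.

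A G-quadruplex motif, taken as 4 runs of at least 3 G with loops of 1 to 7 bases on the strand of the peak, was present in 3 untreated peaks, at *EGR1*, *IER2* and *ATF3*. In the treated list it was in 4 peaks, those at the same genes and the peak at the end of *JUND*. Over all peaks, 18.2% of untreated and 19.3% of treated peaks held it. It was in 0 of the 4 untreated peaks that lacked a treated partner, but in the treated peak at the end of *JUND* that lacked an untreated one. These peaks are too few to be set against the shares over all peaks.

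**Figure D3:**
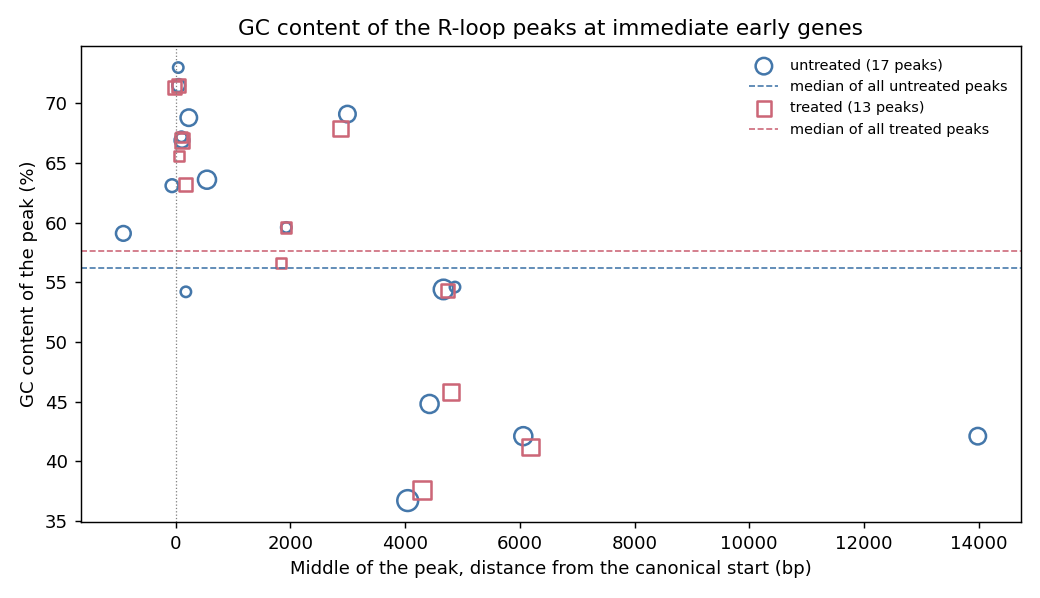
GC content (y axis, %) of each R-loop peak at the 10 genes against the distance of its middle from the canonical start (x axis, bp), for 17 untreated (circles) and 13 treated peaks (squares), with an area that grows with the width of the peak. Dashed lines are the medians over all peaks, 56.2% for untreated and 57.6% for treated cells. Start peaks lie above the line of their own list except that of FOSB at 54.2%, and peaks past the gene ends lie below the line of their own list.

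Other genes of the response were compared from lists of genes chosen by function, which share a few genes such as *FOSL1* and *MAFF*. Of 50 other immediate early genes, 34 had a peak in each list, 31 of them in both. Among the 37 with a peak in either list, 10 had fewer and 14 had more covered bp in the treated list and 13 were equal, and the summed length was larger by 6.10%. Whether these 50 genes differ from the 10 was not tested. Peaks were in the untreated list alone at *NR4A1*, an orphan nuclear receptor gene, at the phosphatase gene *DUSP8* and at *MAFF*, a small MAF factor gene. They were in the treated list alone at *NR4A3*, at *DUSP6* and at the kinase gene *SIK1*. At *DUSP6* and *SIK1* the peak lay beside the gene record and covered 0 of it. Of the 9923 protein-coding genes with a peak in either list, 1092 had it in the untreated list alone and 1517 in the treated list alone. The most covered records in untreated cells were those of *IER3* (100% in both lists), *GADD45B*, a stress sensor gene (76.6% in untreated and 53.2% in treated cells), and *HES1*, a Notch target (75.7% and 66.0%). *EGR2*, *EGR3*, *EGR4*, *FOSL2*, *ARC* and *NPAS4* were among the 13 genes without a peak in either list.

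Of 32 AP-1, ATF and MYC family genes beyond the 10, 20 had a peak in untreated and 15 in treated cells. Peaks were in the untreated list alone at 6 of them, *ATF1*, *ATF2*, *ATF6B*, *CREB1*, *MAFF* and *MXD1*, and in the treated list alone at *MXI1*. These are of 21 family genes with a peak in either list. Among all protein-coding genes, 1092 of 9923 had it in the untreated list alone and 1517 in the treated list alone. The difference was not tested. At *ATF6B* the peak lay beside the gene record and covered 0 of it. *ATF2* and *CREB1* each had an untreated length of 750 bp and no treated peak. *CREM* went the other way, with more sequence covered after treatment, 1250 bp against 500 bp. The covered length was smaller in treated cells at 11 genes, larger at 7 and equal at 3. *ATF4*, the effector of the integrated stress response, had the most covered record, 47.8% in untreated and 25.1% in treated cells, followed by *ATF5* (14.3% in both) and *FOSL1* (11.7% in both). *MYCN* and *MYCL* had no peak in either list, and *MAX*, the partner of MYC, had 750 bp in both.

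Of 43 genes that act upstream, from RAS and its kinases to the factors that pause and release RNA polymerase II, 29 had a peak in untreated and 31 in treated cells. The covered length was smaller in treated cells at 13, larger at 15 and equal at 6. Peaks were in the untreated list alone at *GRB2*, *MAPK14* and *NELFE*, and in the treated list alone at genes that include *SOS2*, *BRAF*, *MAP2K6* and *CDK9*. At *GRB2*, *NELFE*, *SOS2*, *MAP2K6* and *CDK9* these peaks lay in the 2 kb beside the gene record and covered 0 of it. At *CDK9* only 45 bp of the window were covered. *HEXIM1*, an inhibitor of the elongation kinase P-TEFb, had the most covered record in untreated cells (20.7%, and 26.1% in treated cells). In untreated cells it was followed by *NRAS* (7.60%, and 4.06% in treated cells) and *SUPT5H*, an elongation factor gene (5.55% and 1.85%). *NELFB*, a pausing factor gene just below them in untreated cells, was covered by 5.49% in untreated and 13.7% in treated cells. The share of genes with a peak in the 3 lists, in the order given, was 68.0%, 62.5% and 67.4% in untreated and 68.0%, 46.9% and 72.1% in treated cells. The median length of their records was 5652, 16386 and 58957 bp, against 4163 bp for the 10 genes and 27256 bp for all protein-coding genes, so that the windows searched differed in size. The median change of the covered length was 0, -250 and 0 bp, against -500 bp at the 10 genes and 0 among all protein-coding genes with a peak in either list.

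**Figure D4:**
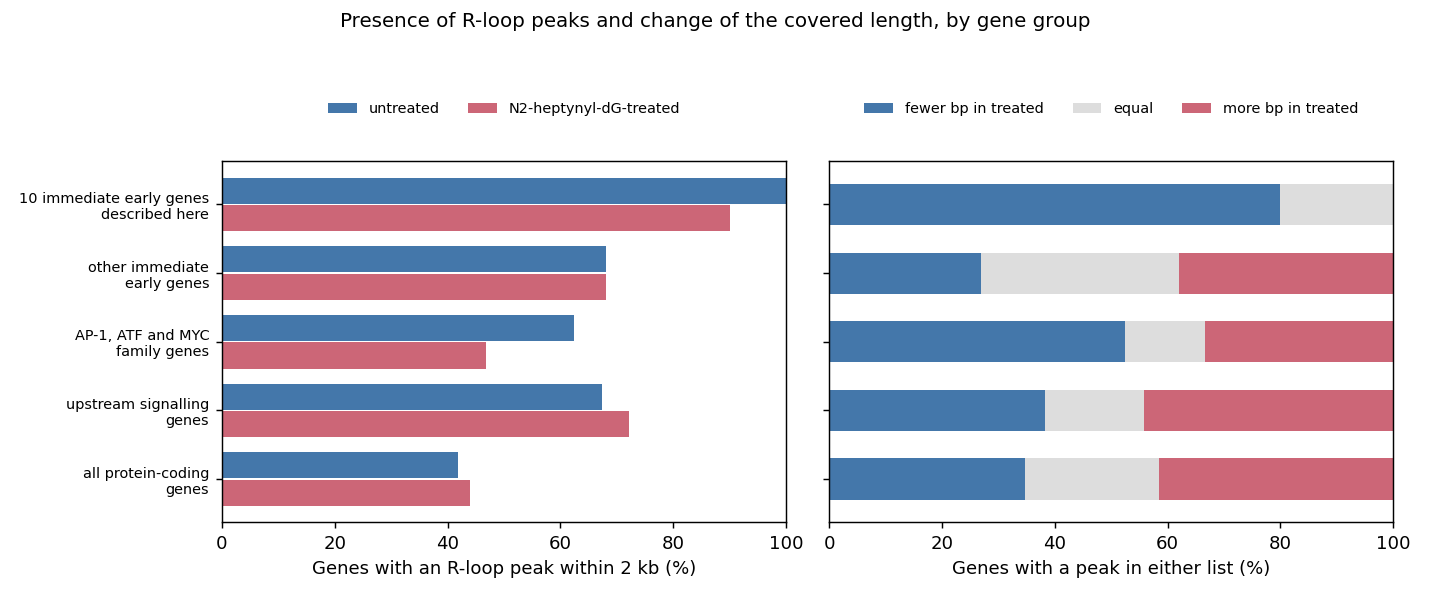
Left, percentage of genes with an R-loop peak within 2 kb (x axis) in untreated (blue) and treated cells (red), for the 10 genes, the 3 lists of related genes and all protein-coding genes (y axis). Right, among genes with a peak in either list, the percentage with fewer, equal or more bp covered in the treated list, where 80.0% of the 10 genes and 34.7% of all protein-coding genes had fewer.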

How the data were processed

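spKAS-seq was performed on HEK293T cells, in 2 untreated and 2 N2-heptynyl-dG-treated samples beside 2 inputs. Per the methods, the authors used Trim Galore for trimming, Bowtie2 for alignment against hg19 and Picard for duplicates. R-loops were then called from both replicates by a published procedure. Versions and the width step of the procedure are not given in the sources used here. The deposited lists hold positions in bp with a strand and no other unit or score. That the strand is that of the enriched DNA is not stated in the lists. Each was taken as the list of its condition. Widths of all but 6 untreated and 3 treated peaks are multiples of 250 bp. None of 21213 peaks on named chromosomes passed a chromosome end of GRCh37, the build of the reference sequence and of GENCODE release 44 mapped to it.

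Peaks were matched to gene records with 2 kb on either side, without regard to strand, from 1 bp of overlap. Start, end, exons and untranslated sequence are those of the Ensembl canonical transcript. Covered bp count each base once, within the window. Peaks were shared from 1 bp of overlap across lists, on either strand. Base composition was read where at most 50% of a peak was masked. Promoters are the 250 bases before the canonical start. Those of *JUN*, *MYC* and *ATF3* are not printed. All 250 bases at *MYC* and 91 bases at *ATF3* lie in exons of other transcripts. The windows of 100 bases were those outside untranslated exons with the largest excess of G over C.

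The genes and lists were chosen with earlier results of these data known, and the comparison of covered bp after the values were seen. Genes named from the lists are those with a peak in 1 list only and the 3 with the most covered record in untreated cells; other names from the lists were chosen after their values were seen. An item that this rule would name is not reported here. No test between conditions was possible with 1 list each. The overlap functions were tested on simulated data, and the count of shared peaks was checked against bedtools 2.31.1. Python 3.11.15, numpy 2.4.6, pysam 0.24.0, matplotlib 3.10.9 and samtools 1.23.1 were used.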

Additional observations from a re-analysis of the deposited data

How the results depend on the processing

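No paired analysis was possible because the 2 replicates of a condition share a single list. For 13 results, 53 values were recomputed, of which 42 stayed close to the first value and 11 moved. By the rule used, only the summed change could have been called reversed, and it kept its sign under each alternative. Close means within 1.5 times for counts, covered shares and the summed change, within 1 SD over the peaks for skew, and within the 95% Wilson interval for shares of coding genes. With a 90% reciprocal overlap, 4 untreated and 4 treated member peaks were shared, in place of 13 and 12. Within 5 kb, all 10 genes including *JUNB* had a treated peak, and with 1 kb around the start, or with peaks of at least the median width, 6 had one. Genes with more covered bp in the treated list went from 0 to 1 with the gene record alone and with the gene strand only (*JUND* in both), and to 1 with peaks of at least 750 bp (*IER2*). The summed change was -26.0% to -35.5% and genes with fewer bp 6 to 8 under the alternatives. These alternatives for covered bp were chosen after seeing the data. The other 6 moved values are shares of coding genes, 41.1% and 42.5% for records no longer than that of *ATF3*, 31.8% and 34.2% for the record alone, and 19.2% and 20.3% for all gene types (untreated and treated). The cause was not tested beyond what each setting does by construction. Without heights, depth or a second list per condition, a peak near the limit of detection cannot be told apart from one that changed with treatment.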
